A study of Mus musculus with 30 samples.

Results

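The genes described here encode the enzymes that write, copy and remove DNA methylation: the DNA methyltransferases Dnmt1, Dnmt3a and Dnmt3b, their cofactors Uhrf1 and Dnmt3l, and the dioxygenases Tet1, Tet2 and Tet3. They were chosen by symbol, with earlier results of these data known, and all 8 were found among the 14685 genes of the expression table. RNA sequencing was performed on mouse E14 embryonic stem cells (ESC) and on blood cells differentiated from them, in 30 samples that form 15 groups of 2. The study asked how loss of the binding of Sp1 and Sp3, related transcription factors that recognise GC boxes in promoters, affects blood cell development. The 3 genotypes were E14 WT, Sp1ΔDBD/ΔDBD (labelled Sp1_deltaDBD, in which the DNA-binding domain of Sp1 is deleted while its N-terminal part remains) and Sp3-/- (labelled Sp3KO). Each was followed through 5 populations. ESC gave rise to embryoid bodies, from which Flk1+ mesoderm containing the haemangioblast was purified on magnetic columns and seeded in blast culture. At day 2 of that culture floating and adherent cells were combined and sorted into hemogenic endothelium 1 (HE1, KIT+ CD41- Tie2+), hemogenic endothelium 2 (HE2, KIT+ CD41+ Tie2+) and progenitors (KIT+ CD41+ Tie2-). Hemogenic endothelium is the endothelium that gives rise to blood. As far as is stated, each mutant was a single ESC line, so that a line and its genotype cannot be told apart.

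DNA methylation in mammals sits mostly on cytosines of CpG dinucleotides. Dnmt1 is the maintenance enzyme that copies the pattern onto the new strand after replication, and Uhrf1 binds hemimethylated DNA and brings Dnmt1 to it. Dnmt3a and Dnmt3b set new methylation, and Dnmt3l is a catalytically inactive relative that stimulates them in germ cells and pluripotent cells. The Tet enzymes oxidise methylcytosine, which leads to its loss through replication or base excision repair. In blood, DNMT3A and TET2 are best known as genes that are often mutated in clonal haematopoiesis and leukaemia, whereas Dnmt3b, Dnmt3l and Tet1 are known for high expression in pluripotent cells.

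Sp1 and Sp3 bind GC boxes, so the promoters of the members were searched for the letters GGGCGG and for CCGCCC on the other strand in the 250 bases before each start site (RefSeq, GRCm38.p6). All 8 members held such a match at 1 or more start sites, beside 62.2% of the 11139 genes of the table that could be matched. Per start site the match was found at 11 of 15 (73.3%), beside 55.9% of the 14096 start sites of genes in the table and 32.7% of all 32851. The promoters of Dnmt3b and Uhrf1, the members called between a mutant and WT, and of Tet1, the Tet gene with the largest step in WT, are shown at 1 start site each, 5′ to 3′ on the strand of the gene, with the matches in capitals. Dnmt3b (chr2:153649199-153649448, plus strand, 75.2% GC) held 3 matches, of which 2 are adjacent, Uhrf1 (chr17:56304063-56304312, plus strand, 69.6% GC) held 3, and Tet1 (chr10:62887325-62887574, minus strand, 62.8% GC) held 1 match. The other start site of Uhrf1 held 1 match, and of the 3 start sites of Dnmt3l 1 held any.
Dnmt3b: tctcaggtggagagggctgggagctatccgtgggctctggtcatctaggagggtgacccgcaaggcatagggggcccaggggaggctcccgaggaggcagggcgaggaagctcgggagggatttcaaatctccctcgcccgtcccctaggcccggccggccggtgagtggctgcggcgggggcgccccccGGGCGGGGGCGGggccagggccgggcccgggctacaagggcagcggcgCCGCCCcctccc
Uhrf1: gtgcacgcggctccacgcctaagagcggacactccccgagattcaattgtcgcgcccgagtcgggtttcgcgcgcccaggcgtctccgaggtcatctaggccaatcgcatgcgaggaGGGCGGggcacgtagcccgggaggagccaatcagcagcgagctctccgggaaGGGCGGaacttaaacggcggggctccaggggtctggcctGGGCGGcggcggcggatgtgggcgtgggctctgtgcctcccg
Tet1: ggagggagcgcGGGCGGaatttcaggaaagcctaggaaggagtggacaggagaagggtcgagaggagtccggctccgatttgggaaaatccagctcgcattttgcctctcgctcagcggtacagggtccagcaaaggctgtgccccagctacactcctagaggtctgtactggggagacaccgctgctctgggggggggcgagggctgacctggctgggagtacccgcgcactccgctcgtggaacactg
A match says that these letters are present in this window, and binding of Sp1 or Sp3 to it was not examined here.

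The values were FPKM, fragments scaled by transcript length and by library size, so levels can be set beside each other between genes. They had been quantile normalised by the authors, so the depth behind a value is unknown, and the spread between the 2 replicates is the only error available. Differences between groups were tested with limma on log2(FPKM + 0.1), in which 14525 genes above 1 FPKM in at least 1 sample shared a fit over all 30 samples, and a gene was called at an adjusted p below 0.05 (Benjamini-Hochberg over those genes in each comparison). An exact permutation test of a single gene in 2 against 2 samples cannot give a two-sided p below 0.333. The targeted genes were checked first. Sp3 mean FPKM was 26.1 to 46.7 in WT and 3.78 to 7.45 in Sp3-/- populations, whereas Sp1, of which the N-terminal part is retained, ranged from 17.6 to 38.3 in Sp1ΔDBD/ΔDBD and from 25.2 to 49.8 in WT. The summed FPKM of 4 ESC markers was 979 to 1260 in ESC and at most 1.96 after the Flk1+ stage, and that of 5 hemogenic endothelium markers was 713 to 1098 in HE1 and 120 to 162 in progenitors.

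Along the WT differentiation the maintenance genes Dnmt1 and Uhrf1 stood at 52.4 FPKM or above in every sample. Neither Dnmt1 nor Dnmt3a had a called step, although some alternative settings, given below, called steps of both. Uhrf1 was lowest in HE1. Dnmt3l was lost after the ESC stage, Tet1 fell in 2 steps, Dnmt3b fell to its lowest level in HE1 and was higher again in HE2, and Tet3 rose as Tet1 fell. In bulk RNA a smaller share of expressing cells and less RNA per cell cannot be told apart.

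**Figure D1:**
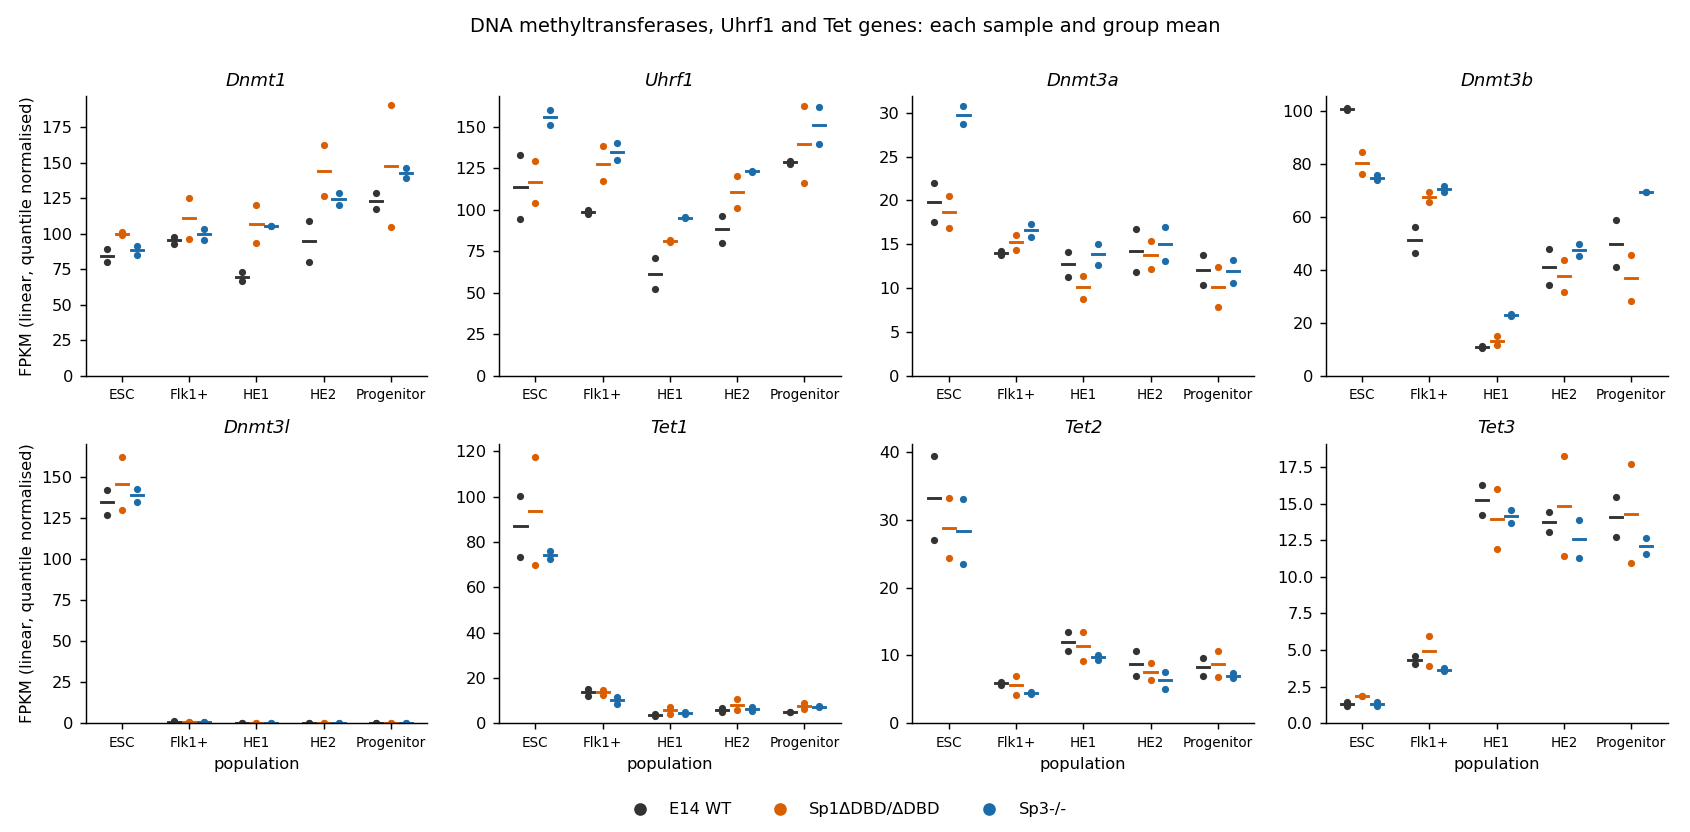
FPKM (linear scale) of the 8 members in each of the 30 samples, by population on the horizontal axis and genotype in colour, with short lines at the means of the 2 replicates. Dnmt3l stands at 127 to 162 FPKM in ESC and below 1 FPKM elsewhere, Dnmt3b has its lowest values in HE1, and Tet3 runs in the opposite direction to Tet1.

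Among the maintenance genes, Dnmt1 (chr9:20907209-20959888, minus strand, GENCODE annotation of GRCm38, as are the positions that follow) measured 79.8 and 89.5 FPKM in the WT ESC samples and 97.8 and 93.1 FPKM in Flk1+ cells. It measured 72.8 and 66.5 FPKM in HE1, 79.98 and 109 FPKM in HE2 and, in progenitors, 118 and 129 FPKM. HE1 thus held the lowest and progenitors the highest WT samples, and HE2 overlapped with both Flk1+ cells and ESC. None of its 12 steps between successive populations passed the test, the nearest being Flk1+ to HE1 in WT (log2 fold change -0.45, SE 0.206, limma adjusted p = 0.0719).

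Uhrf1 (chr17:56303321-56323486, plus strand) was likewise lowest in HE1 and highest in progenitors. Its WT values were 94.3 and 133 FPKM in ESC, 97.4 and 99.8 FPKM in Flk1+ cells and 70.7 and 52.4 FPKM in HE1, followed by 80.1 and 96.4 FPKM in HE2 and, in progenitors, 128 and 129.7 FPKM. The HE1 samples lay below all others, and ESC overlapped with both progenitors and Flk1+ cells. Uhrf1 fell from Flk1+ cells to HE1 in all 3 genotypes, with log2 fold changes of -0.69 in WT (SE 0.176, limma adjusted p = 0.00265), -0.65 in Sp1ΔDBD/ΔDBD (0.00519) and -0.50 in Sp3-/- cells (0.027). It rose again in WT from HE1 to HE2 (log2 fold change 0.53, adjusted p = 0.0376) and from HE2 to progenitors (0.55, adjusted p = 0.0449). The fall was not called in WT without HE1 WT replicate 2 (adjusted p = 0.0644), in Sp1ΔDBD/ΔDBD without Flk1+ replicate 2 (0.0622), or in Sp3-/- without any 1 of its 4 libraries (0.0617 to 0.135). The rise to HE2 was not called without HE1 WT replicate 2 (0.326) or HE2 WT replicate 2 (0.233), and that to progenitors was not called without HE2 WT replicate 1 (0.287) or either WT progenitor sample (0.146 and 0.141).

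Genes of DNA replication were called in the same WT steps as Uhrf1 around HE1. A list of 16 S-phase genes summed to 767 and 801 FPKM in WT HE1, 1107 to 1200 in HE2 and 1332 to 1405 in progenitors, and in WT 11 of the 16 were called lower from Flk1+ cells to HE1 (29.5% of all genes) and 12 higher from HE1 to HE2 (11.7%). Uhrf1 equalled 8.82% and 6.84% of that sum in the WT HE1 samples. The part of the replicating share of cells in the level of Uhrf1 was not tested.

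Of the de novo enzymes, Dnmt3a (chr12:3806007-3914443, plus strand) varied least. It measured 17.5 and 22.05 FPKM in WT ESC and 13.8 and 14.2 FPKM in Flk1+ cells, and then 11.3 and 14.1 FPKM in HE1, 11.8 and 16.7 FPKM in HE2 and, in progenitors, 10.4 and 13.7 FPKM. ESC stood apart, and each of the other 4 WT populations overlapped with its neighbour in the order of the means. Dnmt3a was called lower from ESC to Flk1+ cells in Sp3-/- (log2 fold change -0.84, limma adjusted p = 0.00481) and from Flk1+ cells to HE1 in Sp1ΔDBD/ΔDBD cells (-0.60, adjusted p = 0.0376). The second call was lost without either Flk1+ sample of that line (adjusted p = 0.171 and 0.0679) or without its HE1 replicate 1 (0.260).

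Dnmt3b (chr2:153649450-153687730, plus strand) measured 100.4 and 101 FPKM in WT ESC and 56.3 and 46.5 FPKM in Flk1+ cells. In HE1 it stood at 10.4 and 11.2 FPKM, below every other WT sample, and in HE2 and progenitors it stood at 34.2 and 47.998 and at 41.01 and 58.8 FPKM, which overlapped with each other and with Flk1+ cells. From Flk1+ cells to HE1 it fell in all 3 genotypes, with log2 fold changes of -2.24 in WT (SE 0.209, limma adjusted p = 5.44e-08), -2.37 in Sp1ΔDBD/ΔDBD (4.5e-08) and -1.62 in Sp3-/- cells (4.31e-06). From HE1 to HE2 it rose in all 3, by 1.902 (8.07e-06), 1.505 (7.97e-05) and 1.05 (0.00239). In WT the HE2 mean was 3.82 times that of HE1. The step from ESC to Flk1+ cells was called in WT (-0.98, adjusted p = 0.00065) and not in Sp1ΔDBD/ΔDBD (-0.25, 0.337) or Sp3-/- cells (-0.08, 0.776). The test of the difference between genotypes in that step did not pass for either mutant (Sp1ΔDBD/ΔDBD 0.72, adjusted p = 0.267, and Sp3-/- 0.89, adjusted p = 0.149).

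Dnmt3l (chr10:78041947-78063622, plus strand) had the highest mean of the members in WT ESC. It measured 127 and 142 FPKM in WT, 129.5 and 162 in Sp1ΔDBD/ΔDBD and 143 and 135 in Sp3-/- cells. In Flk1+ cells it measured 0.986 and 0.648, 0.724 and 0.379, and 0.452 and 0.896 FPKM, in the same order. The fall on the log2(FPKM + 0.1) scale was -7.22, -7.85 and -7.55 (limma adjusted p = 3.63e-12, 1.4e-12 and 1.88e-12). Dnmt3l was above 1 FPKM in the 6 ESC samples only, and so entered the fit through the group where it was high. No conclusion is drawn from these p-values. In HE1, HE2 and progenitors Dnmt3l stood at the lowest value of the library in 17 of 18 samples. In the libraries of these populations that value was shared by 784 to 1660 genes. The other sample, of Sp1ΔDBD/ΔDBD HE2, held 0.117 FPKM. No fold change is given for these groups, although their tests stay in the counts of tests below.

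Of the Tet genes, Tet1 (chr10:62804570-62908996, minus strand), which contains a CXXC domain that binds unmethylated CpG, measured 73.4 and 100.5 FPKM in WT ESC and 12.1 and 15.1 FPKM in Flk1+ cells. It then stood at 4.11 and 3.04 FPKM in HE1, 6.73 and 5.05 FPKM in HE2 and, in progenitors, 4.89 and 4.71 FPKM. No neighbouring populations overlapped in this order, in which HE1 was lowest. Tet1 fell from ESC to Flk1+ cells in all 3 genotypes, with log2 fold changes of -2.66 in WT (SE 0.312, limma adjusted p = 7.61e-07), -2.74 in Sp1ΔDBD/ΔDBD and -2.88 in Sp3-/- cells (adjusted p = 5.33e-07 and 2.65e-07). It fell again from Flk1+ cells to HE1 (-1.904 in WT, -1.32 in Sp1ΔDBD/ΔDBD and -1.11 in Sp3-/- cells, adjusted p = 4.47e-05, 0.00191 and 0.00736). This second fall was not called in Sp1ΔDBD/ΔDBD without HE1 replicate 1 (adjusted p = 0.0522), or in Sp3-/- without Flk1+ replicate 2 (0.0858) or HE1 replicate 2 (0.0638).

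Tet2 (chr3:133463679-133545139, minus strand), which lacks the CXXC domain, measured 27.04 and 39.4 FPKM in WT ESC and 5.58 and 6.104 in Flk1+ cells. It measured 10.6 and 13.4 FPKM in HE1, 6.88 and 10.6 FPKM in HE2 and, in progenitors, 6.99 and 9.58 FPKM. Unlike Tet1, it was lowest in Flk1+ cells, and HE2 and progenitors overlapped. Tet2 fell from ESC to Flk1+ cells in all 3 genotypes (log2 fold change -2.46 in WT, -2.38 in Sp1ΔDBD/ΔDBD and -2.62 in Sp3-/-, largest limma adjusted p = 2.63e-06) and rose from Flk1+ cells to HE1 in all 3 (1.02, 1.03 and 1.11, adjusted p = 0.00897, 0.00971 and 0.00653). The rise was not called in WT without Flk1+ replicate 1 (adjusted p = 0.0537) or HE1 replicate 2 (0.0779), or in Sp1ΔDBD/ΔDBD without Flk1+ replicate 1 (0.159) or HE1 replicate 2 (0.112).

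Tet3 (chr6:83362373-83459084, minus strand) was the lowest member in ESC, with 1.15 and 1.47 FPKM in WT, and measured 4.01 and 4.55 FPKM in Flk1+ cells. It then stood at 16.3 and 14.2 FPKM in HE1, 13.04 and 14.4 FPKM in HE2 and, in progenitors, 15.5 and 12.7 FPKM, which overlapped with each other and lay above both earlier populations. Tet3 rose from ESC to Flk1+ cells (log2 fold change 1.64 in WT, 1.33 in Sp1ΔDBD/ΔDBD and 1.42 in Sp3-/-, limma adjusted p = 1.76e-05, 0.000192 and 8.86e-05) and from Flk1+ cells to HE1 (1.81, 1.505 and 1.92, adjusted p = 6.21e-06, 6.78e-05 and 4.43e-06). Neither later step was called in any genotype.

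Summed over the family, the Tet genes fell from 102 and 141 FPKM in WT ESC to 21.7 and 25.8 FPKM in Flk1+ cells, and stood at 31.0 and 30.6 FPKM in HE1, 26.6 and 30.1 FPKM in HE2 and, in progenitors, 27.4 and 27.0 FPKM. Their make-up turned over. Tet1 held 71.7% of the sum in ESC and 11.6% in HE1, whereas Tet3 went from 1.09% to 49.4% and Tet2 from 27.3% to 39.0%. For the Dnmt3 genes the WT sum went from 245 and 265 FPKM in ESC to 71.0 and 61.4 in Flk1+ cells and 21.7 and 25.3 in HE1, and then to 46.0 and 64.7 in HE2. Dnmt3l held 52.7% of it in ESC. Dnmt3b held 77.5% in Flk1+ cells, 46.0% in HE1 and 74.2% in HE2, so HE1 was the WT population in which the larger share was that of Dnmt3a.

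**Figure D2:**
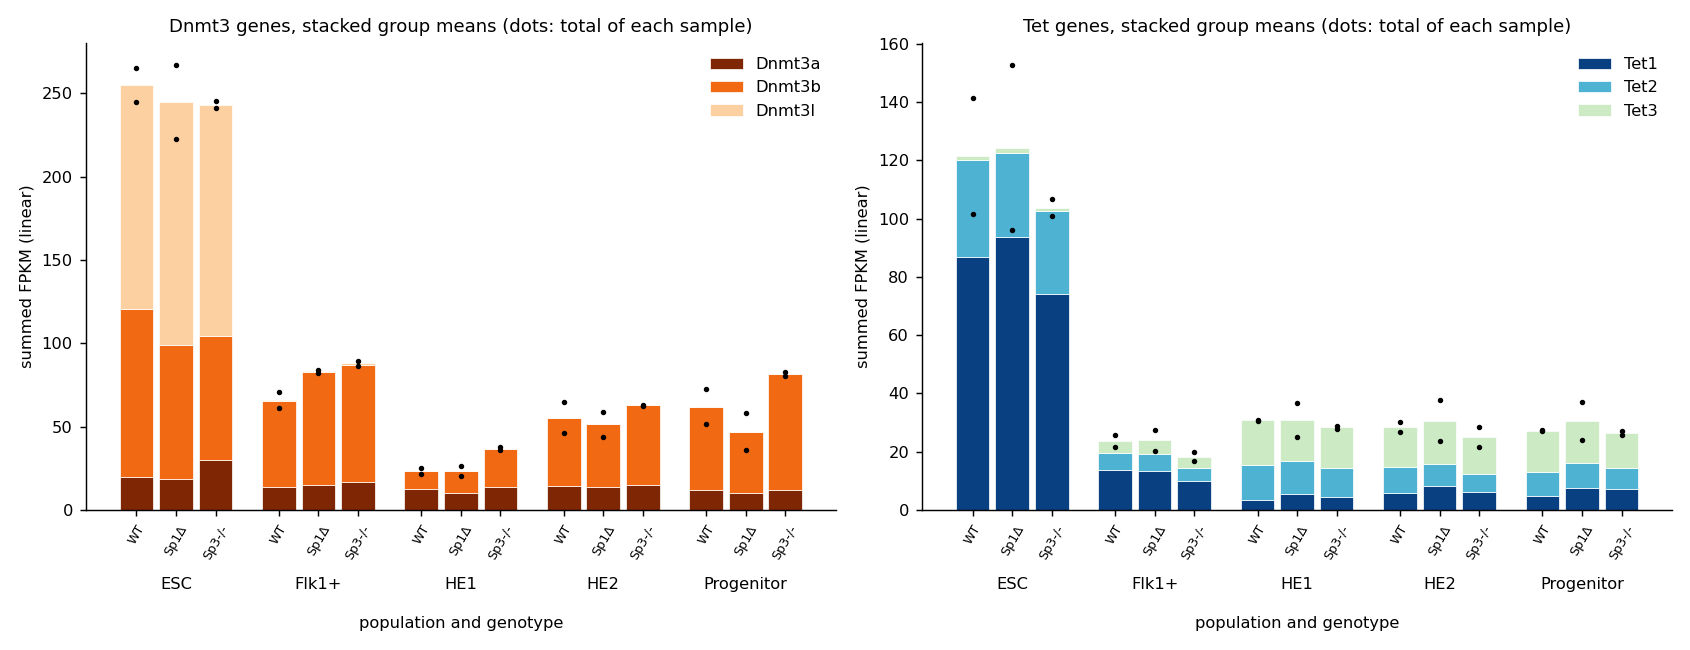
Summed FPKM (linear scale) of the Dnmt3 genes (left) and the Tet genes (right) in each population and genotype, as stacked means of 2 replicates, with dots at the totals of the single samples (Sp1Δ stands for Sp1ΔDBD/ΔDBD). The Dnmt3 total is lowest in HE1, where Sp3-/- samples reach 35.7 and 37.7 FPKM beside 21.7 and 25.3 FPKM in WT. The Tet totals are lower in every later population than in ESC. Tet1 holds the largest share in ESC and Flk1+ cells, and Tet3 holds it in HE1, HE2 and progenitors.

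In counts, 5 of the 8 members were called from ESC to Flk1+ cells in WT, beside 52.2% of all genes tested. From Flk1+ cells to HE1, 6 were called, beside 53.0%. Both counts include Dnmt3l, which entered the fit through ESC alone and stood at the lowest value of the library in HE1. From HE1 to HE2, 2 were called (Uhrf1 and Dnmt3b), beside 21.9%, and from HE2 to progenitors 1 was called, beside 13.2%. The Sp1ΔDBD/ΔDBD cells gave 4, 7, 1 and 0 calls for the same steps (48.6%, 46.1%, 20.0% and 15.8% of all genes), and the Sp3-/- cells gave 5, 6, 1 and 0 (48.8%, 44.0%, 14.4% and 8.77%). For the last step, an unadjusted p below 0.05 was given by 0 members in Sp1ΔDBD/ΔDBD and 1 in Sp3-/- cells. In all, 38 of 96 tests were called, 6 of them of Dnmt3l, beside 32.2% over all genes and the same comparisons. A call in at least 1 step was found for 7 of the 8 members, Dnmt1 being the exception under these settings. With these shares of all genes called, the counts in the first 2 steps are not particular to the members.

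The second question was how the members differed between each mutant and WT within a population. Of 80 tests, 2 were called, both higher in Sp3-/- HE1, namely Dnmt3b and Uhrf1, beside 9.74% of the tests over all genes and the same comparisons. Both mutants were set against the same WT samples, so their values are given side by side and are not independent. No member was called in Sp1ΔDBD/ΔDBD cells, where 6.06%, 5.54%, 10%, 9.67% and 8.78% of all genes were called in ESC, Flk1+, HE1, HE2 and progenitor cells. In Sp3-/- cells the corresponding shares were 11.3%, 12.6%, 10.9%, 13.8% and 8.65%, and for Sp3-/- HE1 6.02% were called higher. An unadjusted p below 0.05 in limma was given by 14 of the 80 tests. The share of all genes at that threshold was not computed and is at least the 9.74% called, so this count is not read as an excess. The count of calls was 1 without HE1 WT replicate 2 or either Sp3-/- HE1 sample, and 6 or 7 without the first or the second of the Sp1ΔDBD/ΔDBD progenitor samples.

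Dnmt3b measured 10.4 and 11.2 FPKM in WT HE1, 11.4 and 14.8 in Sp1ΔDBD/ΔDBD HE1 and 23.1 and 22.6 in Sp3-/- HE1. The Sp3-/- samples lay above all 4 others. The mean was 2.13 times that of WT, a log2 fold change of 1.08 (SE 0.209, 95% interval 0.64 to 1.52, limma adjusted p = 0.0031). It was called without any 1 of the HE1 libraries of WT and Sp3-/- (adjusted p 0.0143 to 0.0342), and not when the 6 HE1 samples were fitted alone (0.0756). In the other populations the Sp3-/- difference from WT was -0.43 in ESC (74.1 and 75.8 FPKM against 100.4 and 101), 0.47 in Flk1+ cells (71.8 and 69.6 against 56.3 and 46.5), 0.23 in HE2 (49.998 and 45.3 against 34.2 and 47.998) and 0.50 in progenitors (69.6 and 69.7 against 41.01 and 58.8), none of them called (adjusted p 0.151 to 0.511). On average Dnmt3b thus stood below WT in Sp3-/- ESC and above it in the 4 later populations.

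The difference of a mutant from WT in each later population was tested against that in ESC. This tests a difference in size and not a change of sign, and the lower Dnmt3b in Sp3-/- ESC was itself not called. The Sp3-/- effect on Dnmt3b in HE1 exceeded that in ESC by 1.51 on the log2 scale (SE 0.296, 95% interval 0.89 to 2.13, limma adjusted p = 0.0163), the only call among 64 such tests of the members, beside 2.16% of all genes in that comparison (1.48% for Flk1+ cells, 0.544% for HE2 and 1.34% for progenitors). For Sp1ΔDBD/ΔDBD, where no member was called, the shares were 1.74%, 3.99%, 2.62% and 3.15% for Flk1+, HE1, HE2 and progenitor cells. The Sp3-/- call was lost without HE1 WT replicate 1 (adjusted p = 0.0624), either Sp3-/- ESC sample (0.0542 and 0.0636) or Sp3-/- HE1 replicate 2 (0.0693). For the other populations the effect against ESC was 0.89 in Flk1+ cells, 0.66 in HE2 and 0.93 in progenitors (adjusted p = 0.149, 0.361 and 0.117).

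Directly compared, the mutants differed in Dnmt3b in HE1 and in progenitors, and no other member was called, which gave 2 of 40 tests (13.6% and 11.6% of all genes in these comparisons, and 9.67%, 7.39% and 15.9% in ESC, Flk1+ cells and HE2). In HE1 Sp3-/- exceeded Sp1ΔDBD/ΔDBD by 0.81 (95% interval 0.37 to 1.25, limma adjusted p = 0.0146). In progenitors Dnmt3b stood at 69.6 and 69.7 FPKM in Sp3-/- and 28.1 and 45.7 FPKM in Sp1ΔDBD/ΔDBD cells, with WT at 41.01 and 58.8 FPKM between them and overlapping with the latter, a difference between the mutants of 0.96 (95% interval 0.52 to 1.396, adjusted p = 0.00587). The HE1 difference was not called without Sp1ΔDBD/ΔDBD HE1 replicate 1 (adjusted p = 0.113) or either Sp3-/- HE1 sample (0.0780 and 0.0818), or with HE1 fitted alone (0.0680). The progenitor difference was not called without Sp1ΔDBD/ΔDBD progenitor replicate 1 (0.101) or with progenitors fitted alone (0.155), and the progenitor libraries of this line had the lowest fitted weight of any group (0.449). Without replicate 2 of these, Dnmt3b was called lower than WT in Sp1ΔDBD/ΔDBD progenitors (log2 fold change -0.805, adjusted p = 0.0298).

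**Figure D3:**
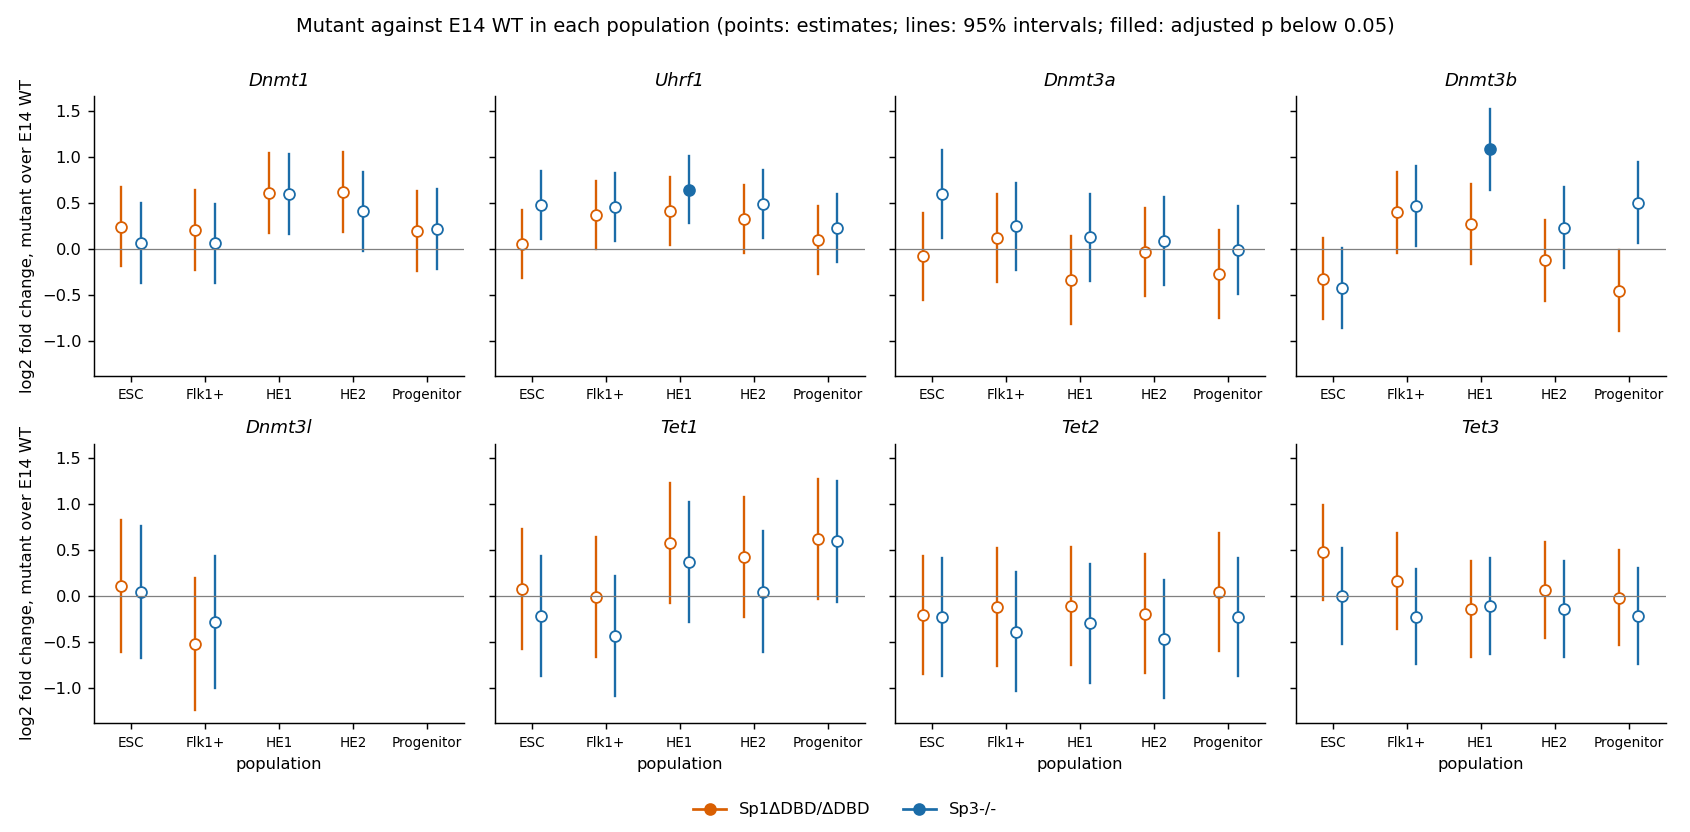
Log2 fold change of each member in Sp1ΔDBD/ΔDBD and Sp3-/- cells over E14 WT in the 5 populations, with 95% intervals from the limma fit and filled points where the adjusted p was below 0.05. The 2 filled points are Dnmt3b (1.08) and Uhrf1 (0.65) in Sp3-/- HE1, and Dnmt3l is left out where its groups stand at the lowest value of the libraries.

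Uhrf1 measured 70.7 and 52.4 FPKM in WT HE1, 80.4 and 81.9 in Sp1ΔDBD/ΔDBD and 95.3 and 95.3 in Sp3-/- HE1, with no overlap between the genotypes. The Sp3-/- difference from WT was 0.65 (SE 0.176, 95% interval 0.28 to 1.01, limma adjusted p = 0.0234). In Sp3-/- cells Uhrf1 lay above WT without overlap in all 5 populations, with log2 fold changes of 0.48 in ESC, 0.45 in Flk1+ cells, 0.49 in HE2 and 0.23 in progenitors that did not pass (adjusted p = 0.0906, 0.1, 0.0714 and 0.484), although that in ESC was called without ESC WT replicate 2 (0.72, adjusted p = 0.0337). Groups that do not overlap were common here, with 61.0%, 68.0%, 61.4%, 59.0% and 56.2% of all genes in the Sp3-/- comparisons in ESC, Flk1+, HE1, HE2 and progenitor cells. The Uhrf1 call rested on single libraries, since it was lost without HE1 WT replicate 2 (0.43, adjusted p = 0.212) or either Sp3-/- HE1 sample (0.64 and 0.65, 0.105 and 0.126), and with HE1 fitted alone (0.110).

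Dnmt1, its partner, was above WT on average in all 10 comparisons of a mutant with WT, none of them called. The sign turned in Sp1ΔDBD/ΔDBD progenitors without their replicate 2 (log2 fold change -0.24) and in Sp3-/- ESC without ESC WT replicate 1 (-0.02). In HE1 it measured 72.8 and 66.5 FPKM in WT, 93.3 and 120.5 in Sp1ΔDBD/ΔDBD and 105 and 105 in Sp3-/- cells, and both mutants lay above WT. The log2 fold changes were 0.61 (95% interval 0.17 to 1.04, limma adjusted p = 0.0688) and 0.60 (0.17 to 1.03, 0.0698). In HE2 it measured 79.98 and 109 FPKM in WT, 127 and 163 in Sp1ΔDBD/ΔDBD and 128 and 120.0 in Sp3-/- cells, with log2 fold changes of 0.62 (adjusted p = 0.0654) and 0.41 (0.199). The first of these was called without HE2 WT replicate 2 (0.84, adjusted p = 0.0421) or Sp1ΔDBD/ΔDBD HE2 replicate 1 (0.797, 0.0457). The widest replicate gap was in Sp1ΔDBD/ΔDBD progenitors, at 104 and 191 FPKM.

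Other features of the Sp3-/- HE1 samples moved with these results. The S-phase list summed to 1070 and 1120 FPKM in Sp3-/- HE1, 899 and 1008 in Sp1ΔDBD/ΔDBD and 801 and 767 in WT HE1, and 6 of its 16 genes were called higher in Sp3-/- HE1, with all 16 positive (median 0.46, beside 0.05 over all genes). As a percentage of that sum Uhrf1 stood at 8.91 and 8.50 in Sp3-/- HE1 and 8.82 and 6.84 in WT, which overlap, whereas Dnmt3b stood at 2.16 and 2.02 in Sp3-/-, 1.29 and 1.46 in WT and 1.27 and 1.47 in Sp1ΔDBD/ΔDBD HE1. Itga2b, which encodes CD41, the surface protein absent from the HE1 gate, measured 83.3 and 81.8 FPKM in Sp3-/- HE1, 42.8 and 55.7 in Sp1ΔDBD/ΔDBD, 34.8 and 49.2 in WT HE1 and 84.6 and 147 in WT HE2. All 5 blood progenitor markers together gave 112 and 106 FPKM in Sp3-/- HE1 and 53.0 and 77.2 in WT HE1. Itga2b is 1 of these markers and made up most of each sum and of the difference between them. Markers of smooth and cardiac muscle summed to 194 and 122 FPKM in Sp3-/- HE1, 981 and 248 in Sp1ΔDBD/ΔDBD and 1664 and 354 in WT HE1, and 5 fibroblast genes to 27.7 and 19.0, 127 and 13.3, and 282 and 35.7 FPKM. The part of the S-phase share and of the blood progenitor, muscle and fibroblast signal in the Dnmt3b and Uhrf1 differences was not tested.

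**Figure D4:**
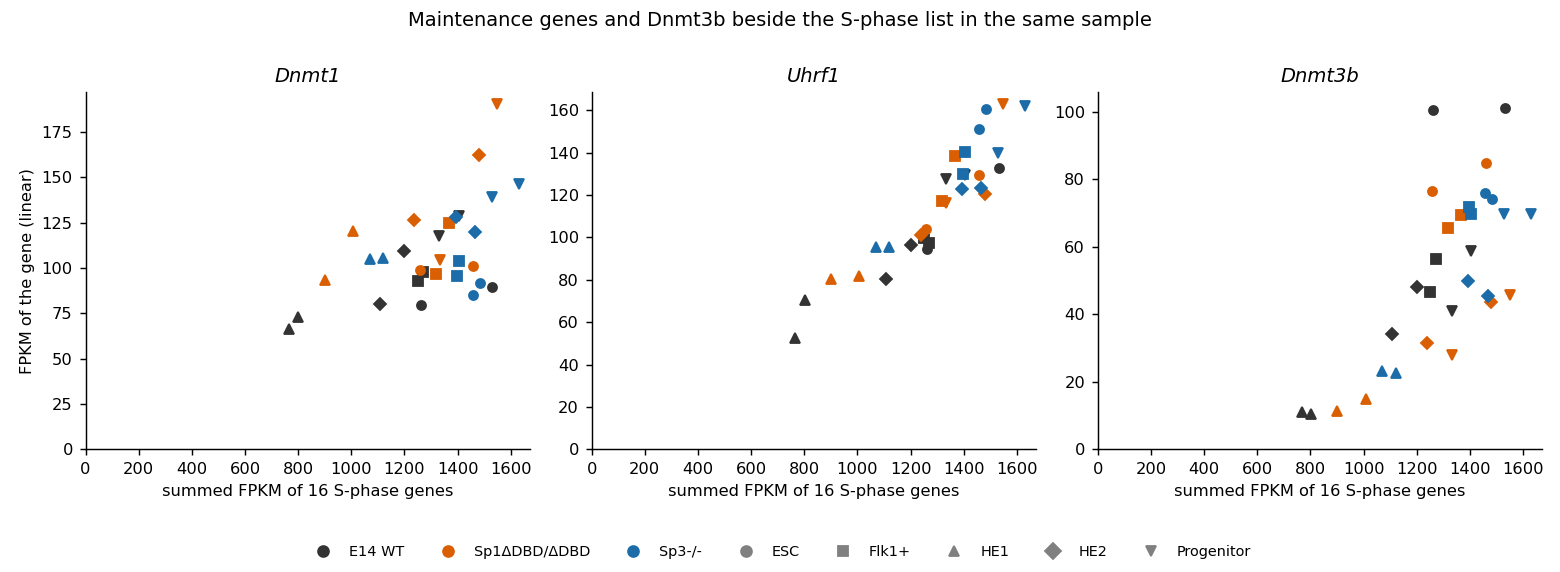
FPKM of Dnmt1, Uhrf1 and Dnmt3b against the summed FPKM of 16 S-phase genes in the same sample (both linear), with genotype in colour and population by symbol. The HE1 samples (upward triangles) lie towards the left for all 3 genes, in the order WT (767 and 801), Sp1ΔDBD/ΔDBD (899 and 1008) and Sp3-/- (1070 and 1120), and for Dnmt3b the ESC samples lie above progenitors of a similar sum.

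The remaining members gave no call between genotypes. Dnmt3a measured 28.7 and 30.7 FPKM in Sp3-/- ESC, above 17.5 and 22.05 in WT and 16.8 and 20.5 in Sp1ΔDBD/ΔDBD ESC, with log2 fold changes of 0.59 from WT (95% interval 0.12 to 1.07, limma adjusted p = 0.104) and 0.68 between the mutants (adjusted p = 0.0683). In the 4 later populations its differences from WT lay between -0.34 and 0.24 in either mutant. Dnmt3l in ESC differed from WT by 0.11 in Sp1ΔDBD/ΔDBD (95% interval -0.61 to 0.83) and 0.05 in Sp3-/- cells (-0.67 to 0.77).

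Tet1 differed from WT by at most 0.62 on the log2 scale. In progenitors it measured 4.89 and 4.71 FPKM in WT, 6.18 and 8.94 in Sp1ΔDBD/ΔDBD and 7.09 and 7.55 in Sp3-/- cells, so both mutants lay above WT (log2 fold change 0.62 and 0.60, limma adjusted p = 0.248 and 0.261). Tet2 was lower than WT on average in all 5 Sp3-/- populations, from -0.22 in progenitors to -0.46 in HE2 (95% interval -1.104 to 0.18, adjusted p = 0.346), and in HE2 it measured 7.57 and 5.05 FPKM beside 6.88 and 10.6 in WT, which overlap. Tet3 in ESC measured 1.84 and 1.87 FPKM in Sp1ΔDBD/ΔDBD, 1.44 and 1.18 in Sp3-/- and 1.15 and 1.47 in WT cells, a log2 fold change for the Sp1 mutant of 0.48 (95% interval -0.04 to 0.999, adjusted p = 0.32). The 95% intervals extended 0.65 on either side of the estimate for Tet1, 0.64 for Tet2 and 0.52 for Tet3, so differences of that size cannot be told from none with 2 samples per group.

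The proteins that work with these enzymes were followed as lists, which were described by their counts. Over the 5 populations, 8.02% of the tests of all genes were called in Sp1ΔDBD/ΔDBD and 11.5% in Sp3-/- cells, and the counts of these lists are to be read beside those shares. Of 14 partners of the methyltransferases, 0 were called in ESC of either mutant, and over the 5 populations the Sp1ΔDBD/ΔDBD cells gave 6 higher and 1 lower call in 70 tests and the Sp3-/- cells 3 higher and 2 lower in 70. Cdca7, which recruits the remodeller Hells to chromatin, had the same order of genotypes in HE1 as Dnmt3b, at 23.7 and 21.4 FPKM in WT, 29.9 and 28.9 in Sp1ΔDBD/ΔDBD and 41.7 and 43.5 in Sp3-/- cells. It was called higher in Sp3-/- HE1, HE2 and progenitors (log2 fold change 0.91, 0.67 and 0.75, largest limma adjusted p = 0.000528) and in Sp1ΔDBD/ΔDBD HE1 and HE2 (0.38 and 0.46, adjusted p = 0.024 and 0.00682). Smchd1, a chromosomal protein that helps maintain methylation on the inactive X, was called higher in the 4 Sp1ΔDBD/ΔDBD populations after ESC, by 0.49 to 0.61, with 31.2 and 39.1 FPKM against 24.4 and 21.4 in HE1 (adjusted p = 0.00804), while in Sp3-/- cells its differences ran from -0.21 to 0.05. Prdm14, a repressor of Dnmt3b and Dnmt3l in pluripotent cells, was lower in both mutants in Flk1+ cells, at 0.607 and 0.39 FPKM in Sp1ΔDBD/ΔDBD (adjusted p = 0.00212) and 0.941 and 0.793 in Sp3-/- (adjusted p = 0.0279) beside 1.73 and 2.64 in WT.

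Of the 5 Tet partners tested, Sp1ΔDBD/ΔDBD cells gave 2 higher and 2 lower calls in 25 tests (8.02% of all tests) and Sp3-/- cells 2 higher and 1 lower in 25 (11.5%). Cxxc5, a CXXC protein known to interact with Tet2, measured 16.5 and 12.005 FPKM in WT ESC, 28.2 and 24.8 in Sp1ΔDBD/ΔDBD and 30.4 and 31.3 in Sp3-/- ESC, both above WT (log2 fold change 0.90 and 1.12, limma adjusted p = 0.0101 and 0.00157). In Sp1ΔDBD/ΔDBD HE1 it was lower than WT (-0.69, adjusted p = 0.0352). The isocitrate dehydrogenases make the 2-oxoglutarate that Tet enzymes use. Idh2 was lower in Sp1ΔDBD/ΔDBD progenitors, at 38.1 and 38.1 FPKM beside 70.8 and 85.2 in WT (-1.03, adjusted p = 0.0206), and Idh1 was lower in Sp3-/- HE2, at 32.7 and 33.03 beside 50.1 and 48.2 FPKM (-0.58, adjusted p = 0.0335).

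Each mutant had a gene of the methyl-CpG-binding domain family that was called in several populations. Among 7 genes of methyl-CpG binding proteins and their relatives, the Sp1ΔDBD/ΔDBD cells gave 3 calls and the Sp3-/- cells 5 in 35 tests each, of Mbd1 and Mbd3 respectively. Mbd3, a subunit of the NuRD complex that does not itself bind methylated CpG selectively, was called higher in all 5 Sp3-/- populations (log2 fold change 0.43 to 0.61, largest limma adjusted p = 0.0474), with 43.6 and 43.7 FPKM in Sp3-/- HE2 beside 28.97 and 28.2 in WT. Mbd1 was called higher in Sp1ΔDBD/ΔDBD Flk1+, HE1 and HE2 cells, with 13.4 and 13.5 FPKM in HE2 beside 7.26 and 8.37 in WT (0.78, adjusted p = 0.00421). Of 12 genes of base excision repair and active demethylation, the Sp1ΔDBD/ΔDBD cells gave 2 higher and 4 lower calls in 60 tests (8.02% of all tests) and the Sp3-/- cells 9 higher and 1 lower in 60 (11.5%). The 4 lower calls were all Neil3, a DNA glycosylase of proliferating cells, in Sp1ΔDBD/ΔDBD ESC, Flk1+, HE2 and progenitor cells. In Flk1+ cells Neil3 measured 3.33 and 6.53 FPKM beside 15.05 and 20.2 in WT (-1.88, adjusted p = 8.47e-05). In Sp3-/- HE1 it was higher instead, at 14.9 and 16.6 FPKM beside 6.97 and 6.77 in WT (1.18, adjusted p = 0.00497). Gadd45b (0.96, 0.0256) was called higher in Sp1ΔDBD/ΔDBD HE2, Gadd45g (1.33, 0.0107) higher in Sp3-/- ESC and Neil2 (-1.71, 0.0112) lower in Sp3-/- Flk1+ cells, all 3 at means below 3 FPKM in both groups.

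**Figure D5:**
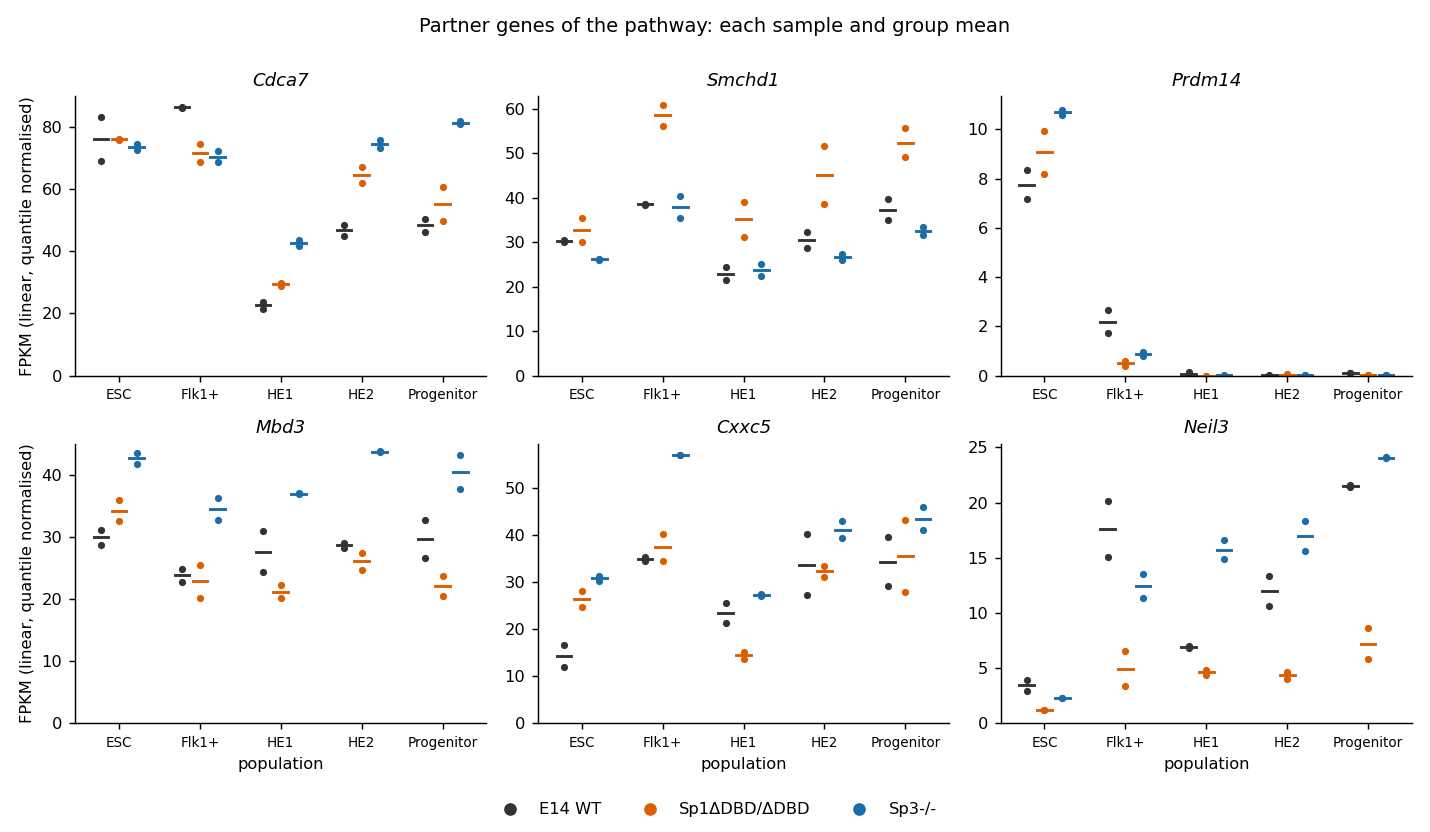
FPKM (linear scale) of 6 partner genes in each sample, by population and genotype, with short lines at the means of 2 replicates. In HE1, HE2 and progenitors Cdca7 is highest in Sp3-/- samples, Smchd1 is highest in Sp1ΔDBD/ΔDBD samples after the ESC stage, Mbd3 is highest in Sp3-/- samples throughout and Neil3 is lowest in Sp1ΔDBD/ΔDBD samples.

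Across the 15 group means, the genes with the pattern most like each member were named by Pearson's r among 12016 genes with a mean above 3 FPKM in at least 1 group. Groups of a genotype share a cell line and most groups of a population share their cell type, so these values are descriptions. Uhrf1 was closest to Chaf1a (r = 0.945), Dnmt1 to Casp2 (0.966), Dnmt3a to Hdac1 (0.930) and Dnmt3b to Nat10 (0.973). Dnmt3l was closest to Tcea3 (0.998) and Esrrb (0.995), Tet1 to Ect2 (0.991), Tet2 to Pdgfc (0.976) and Tet3 to St3gal1 (0.991). Between members, Dnmt3l and Tet1 ran together (r = 0.98), Tet1 and Tet3 ran in opposite directions (-0.94), and Uhrf1 was closer to Dnmt3b (0.79) than to its partner Dnmt1 (0.56).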

How the data were processed

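RNA was sequenced from 2 biological replicates of each of 15 groups with a stranded total RNA kit after removal of ribosomal RNA. Per the submitters' processing notes and the study's methods, the authors trimmed the reads, used HISAT2 2.1.0 for alignment to mm10 and StringTie 1.3.3 for FPKM per gene, kept genes above 1 FPKM and quantile normalised the values. The deposited table holds these FPKM values for 14685 genes, and at no rank did the libraries differ by more than 0.192 FPKM. The gene annotation is not given in the sources used here. Genes at 0 before normalisation share the lowest value of a library (0 to 0.0234 FPKM).

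The 14525 genes above 1 FPKM in at least 1 sample were analysed as log2(FPKM + 0.1) with limma 3.58.1 in R 4.3.3, as 15 group means over 30 samples. Variances were moderated with a trend on mean level, giving 15 residual degrees of freedom and a prior of 3.92. Samples were taken as independent. Adjusted p-values are Benjamini-Hochberg values within each of 35 comparisons, with a threshold of 0.05. The step was tested on simulated data. The members and the gene lists were chosen with earlier results of these data known. All members are named. From each pathway list, the genes with the largest called rise and fall against WT in each mutant were named, and Cdca7, Mbd1, Mbd3, Smchd1 and Neil3 were followed in the other populations after their values were seen. Promoters came from the RefSeq table and gene positions from GENCODE, both on GRCm38. The alternatives were a pseudocount of 1, no filter, no trend, library weights, each population alone, each library left out, a replicate block, a correction for GC content and length (added after the data were seen) and a fold change above 2 with no test.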

Additional observations from a re-analysis of the deposited data

Results flagged for a closer look

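The difference in Dnmt3b between the Sp3-/- line and WT was not the same in ESC and HE1. It was -0.43 on the log2 scale in ESC, which was not called, and 1.08 in HE1. The test of these values against each other gave 1.51 (SE 0.296, limma adjusted p = 0.0163). Both Sp3-/- ESC samples lay below both WT samples, and both Sp3-/- HE1 samples lay above both WT samples. The difference was not called in 4 of the fits that leave out 1 library. The S-phase sum and the blood progenitor marker sum, the latter mostly Itga2b, moved with the HE1 result.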

How the results depend on the processing

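None of the 43 called values of a member changed sign under any alternative run, whereas 114 of the 237 values that were not called did under at least 1 (lowest adjusted p after the change 0.193). These values include those of Dnmt3l in groups at the lowest value of the library. The 38 calls between populations became 36 to 56 calls, and 35 to 40 when 1 library was left out. Library weights, the replicate block and the GC and length correction each called 2 further WT falls. These were Dnmt1 from Flk1+ cells to HE1 (limma adjusted p = 0.0133, 0.0145 and 0.000408) and Dnmt3a from ESC to Flk1+ cells (0.027, 0.0145 and 0.00218). The WT rise of Dnmt1 from HE1 to HE2 was called with the block (0.0407) and with the correction (0.00223). The 2 calls against WT became 7 with library weights, 8 with the GC and length correction, 1 by the rule of a fold change above 2, and 0 with each population fitted alone, where 6 samples leave few degrees of freedom, and 1 to 7 without 1 library. The 2 calls between the mutants became 0 with each population alone and 1 to 3 without 1 library. The 1 difference in effect from ESC became 3 with library weights and 0 to 1 without 1 library. The GC and length correction added Dnmt1 in HE1 of both mutants (adjusted p = 0.0039 for Sp1ΔDBD/ΔDBD and 0.0037 for Sp3-/-) and in Sp1ΔDBD/ΔDBD HE2 (0.0067), and the cause was not tested. Both WT rises of Uhrf1 after HE1 were lost with no intensity trend and with library weights.

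With the replicate block, replicate number within a population or genotype as a block, there were 8 calls against WT (also Dnmt1 in HE1 of both mutants and in Sp1ΔDBD/ΔDBD HE2, Uhrf1 in Sp3-/- ESC and HE2, and Dnmt3a in Sp3-/- ESC), 4 between the mutants, 3 in effect against ESC, and 9, 4 and 6 with the GC and length correction as well. With 2 samples a group and no label that ties a number to a shared culture, the numbers were not taken as pairing. Deviations of same-numbered samples correlated across genes at 0.169 to 0.443 between WT and Sp1ΔDBD/ΔDBD but at -0.0255 to 0.151 between WT and Sp3-/- cells. Among HE1, HE2 and progenitors they correlated at 0.310 to 0.380 in WT, 0.347 to 0.543 in Sp1ΔDBD/ΔDBD and 0.0317 to 0.131 in Sp3-/- cells. HE1, HE2 and progenitors were sorted from blast culture at day 2, and whether same-numbered samples shared a culture was not tested. Depth is unknown, and members below 1 FPKM are the least certain.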

Other observations

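Germline genes that are known to be silenced by promoter methylation were examined beside the enzymes. Of 10 tested, 8 fell from ESC to Flk1+ cells in WT (median log2 fold change -3.97 over the list). In that step 52.2% of all genes were called in either direction. Of the 11 list genes in the expression table, 7 had a mean of 0 FPKM in WT Flk1+ cells. A gene above 1 FPKM in ESC alone enters the fit through that group, so this fall is not read as a result. In Sp1ΔDBD/ΔDBD cells this list gave 10 higher calls and 1 lower over the 5 comparisons with WT, and in Sp3-/- cells 0 higher and 1 lower, beside 5.54% to 10% and 8.65% to 13.8% of all genes called. The direction was not uniform. The 11 list genes in the expression table summed to 9.46 and 5.30 FPKM in Sp1ΔDBD/ΔDBD Flk1+ cells, below 16.6 and 22.9 in WT. The sums overlapped in ESC and were higher than WT in HE1 (5.27 and 4.60 against 1.31 and 1.51), HE2 and progenitors. The higher calls after the ESC stage were of Ddx4, Tex19.1 and Dazl. Ddx4, an RNA helicase of germ cells, measured 1.804 and 1.603 FPKM in Sp1ΔDBD/ΔDBD HE1 and 1.39 and 1.12 in HE2. The WT and Sp3-/- samples of HE1 and HE2 lay at or below 0.0872 FPKM. Tex19.1, which restrains retrotransposons in germ cells, measured 4.68 and 2.76 FPKM in Sp1ΔDBD/ΔDBD progenitors, 0.271 and 0.236 in WT and the lowest value of the library in both Sp3-/- samples (limma adjusted p = 0.000233 and 0.0434). Dazl stayed below 1 FPKM in these populations. DNA methylation itself was not measured.

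Of 7 genes of the methyl donor cycle, Shmt1 and Shmt2, which feed one-carbon units into it, carried most calls. In HE1 Shmt1 measured 16.1 and 19.5 FPKM in WT, 28.2 and 35.8 in Sp1ΔDBD/ΔDBD and 28.3 and 29.3 in Sp3-/- cells (log2 fold change 0.84 and 0.69, adjusted p = 0.000155 and 0.0013). Shmt2 was higher in Sp3-/- HE2, at 56.97 and 60.9 FPKM beside 28.6 and 29.5 in WT (1.02, adjusted p = 0.00149). Like Uhrf1 and the S-phase list, Shmt1 fell from Flk1+ cells to HE1 and rose from HE1 to HE2 in WT (-1.82 and 1.25, adjusted p = 5.47e-10 and 1.61e-06).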
